A study of Mus musculus with 6 samples.

Results

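The extracellular part of WNT signaling was examined in RNA of cultured mouse cerebellar granule neurons (CGNs): the WNT ligands, the Frizzled (FZD) receptors and the secreted modulators of the SFRP, Dickkopf (DKK) and R-spondin (RSPO) families. Members were taken by gene symbol alone, as Wnt, Fzd, Sfrp, Dkk or Rspo followed by a number, which found 41 of the 55341 genes in the count tables: 19 ligands, 10 receptors, 4 SFRPs, 4 DKKs and 4 R-spondins. Cells came from CD1-IGS mice at postnatal day 6 to 8. Granule neuron progenitors were isolated on Percoll gradients, and all cultures received the antimitotic cytosine arabinoside to stop non-neuronal cells from dividing. The 2 groups differed in a one-time treatment at day in vitro (DIV) 3, with 3 libraries given the vehicle DMSO and 3 given GSK-126 (at a dose not given in the sources used here), a small-molecule inhibitor of EZH2, the methyltransferase that deposits trimethylation on lysine 27 of histone H3 (H3K27me3). RNA was taken at DIV5 by the study's methods, although the labels give only DIV3 and name cerebellar tissue. By the study's methods a biological replicate is CGNs from pooled litters. Each replicate number, 1 to 3, appears in both groups, and the labels do not say what it marks.

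WNT proteins are secreted, lipid-modified ligands that bind Frizzled receptors together with the co-receptors LRP5 and LRP6, which spares beta-catenin from destruction and lets it act with TCF/LEF factors in the nucleus. Some WNT and Frizzled pairs signal instead through planar cell polarity or calcium. SFRPs bind WNTs outside the cell, DKKs block LRP co-receptors and R-spondins raise Frizzled levels at the surface by countering the ligases that remove them. In the cerebellum, Wnt7a is made by granule neurons and remodels the mossy fiber axons that contact them, and the study used it as a gene of late granule neuron maturation.

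Counts on genes ranged from 7407189 to 13092763 per library, and levels are given as CPM, counts scaled to a common library size by TMM factors. Libraries with the same number deviated together, so the replicate number was kept as a block in an edgeR quasi-likelihood fit, and calls are Benjamini-Hochberg adjusted p under 0.05 over 16729 tested genes. With the block, 561 genes were higher with GSK-126 and 851 lower, against 714 and 707 with scaling by total counts and 727 and 698 with upper-quartile factors. Without the block no gene passed, with 665 genes at an unadjusted p under 0.05, so each call below rests on comparing GSK-126 with DMSO within replicate numbers. An exact permutation test of 3 libraries against 3 that ignores the replicate numbers cannot give less than 0.1. Keeping the pairs leaves fewer rearrangements and a higher floor. The 17 granule neuron markers summed to 5791–9321 CPM with DMSO and 4624–7465 with GSK-126, and 11 were called lower, 0 higher. The 11 astroglial markers summed to 2870 and 2743 CPM in replicate 2 of DMSO and GSK-126, and to 4734–8841 in the other 4 libraries. The 10 meningeal fibroblast and mural cell markers summed to 7812–10509 CPM with DMSO and 9000–11471 with GSK-126, and 4 were called higher. Of granule neuron progenitor markers, 2 of 7 tested were called higher and 1 lower (median log2 fold change 0.31), and 2 of 11 astroglial and 1 of 8 oligodendrocyte lineage genes were called higher. Among other marker lists, 2 of 8 microglial genes were called higher, 2 of 9 Purkinje cell and interneuron genes lower, and no tested endothelial gene was called by edgeR or DESeq2 (1 of 5 at an unadjusted p under 0.05). The part of these markers in the results below was not tested. No marker list had a gene at 0 in all libraries. In bulk RNA, fewer cells of a type and less RNA per cell cannot be told apart.

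Of the 41 members, 28 had enough counts for the test, and 3 of these passed with the block. Wnt9a was the one called higher, where 3.35% of all tested genes were, and Wnt7a and Fzd3 were called lower, where 5.09% were. Of the 28 tested members 10.7% passed, against 8.44% of all tested genes, so the members as a set were called about as often as any genes. Without the block 0% of genes, members included, passed. The median log2 fold change of the tested members was 0.09 and that of all tested genes -0.01, and the members' median was -0.030 without replicate 3 and 0.16 without replicate 2. CPM of the groups did not overlap for 5 members (Wnt7a, Wnt9a, Wnt16, Fzd3 and Sfrp2), or 17.9%, where 9.44% of all tested genes did not overlap.

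Promoter sequence is shown for called members because EZH2 and its partners are typically found at CpG-rich promoters of silent developmental genes, a class to which many WNT genes belong. The windows are the 250 bases before the transcription start in RefSeq (build GRCm38.p6), 5′ to 3′ on the gene's strand, with every CpG in capitals. Wnt7a (minus strand) is shown from chr6:91411354-91411603 and Wnt9a (plus strand) from chr11:59306680-59306929.
Wnt7a: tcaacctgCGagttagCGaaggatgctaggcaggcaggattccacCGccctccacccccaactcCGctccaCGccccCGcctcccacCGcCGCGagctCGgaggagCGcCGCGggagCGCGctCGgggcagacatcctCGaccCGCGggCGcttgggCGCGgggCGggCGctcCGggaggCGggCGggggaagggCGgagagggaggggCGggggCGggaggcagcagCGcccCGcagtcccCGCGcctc
Wnt9a: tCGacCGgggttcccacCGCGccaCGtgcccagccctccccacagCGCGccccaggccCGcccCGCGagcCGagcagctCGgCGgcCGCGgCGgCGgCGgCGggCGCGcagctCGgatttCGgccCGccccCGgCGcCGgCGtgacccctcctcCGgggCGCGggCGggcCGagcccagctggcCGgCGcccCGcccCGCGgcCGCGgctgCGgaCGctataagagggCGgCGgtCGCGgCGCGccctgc
The Wnt7a window held 34 CpGs and 77.6% G and C, and the Wnt9a window 48 CpGs and 84.4%. Across 32851 promoter windows of this length the median was 6 CpGs and 37.8% of windows held at least 10. A window was found for 27 of the 41 members, with a median of 22 CpGs and a range of 5 to 48 (the window with the lowest coordinate where a gene had several), and 22 of the 27 held at least 10. Fzd3 was among the 14 without one. The letters CTTTGA, the core bound by TCF/LEF factors, were searched on both strands and occurred in 4 of the 27 members' windows (14.8%), against 13.8% of all windows, and in neither sequence above. Wnt9a had the most CpGs of any member's window. EZH2 binding and H3K27me3 at these promoters were not read here. Whether CpG content has a part in the calls was not tested.

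Wnt7a fell by 56.3% with GSK-126, to a fold of 0.437. The gene (ENSMUSG00000030093.7) lies on chr6:91363981-91411363 in GRCm38, on the minus strand, with no exon shared with another gene. It was at 30.5, 55.6 and 28.4 CPM in DMSO replicates 1, 2 and 3, and at 16.1, 22.9 and 10.6 CPM in GSK-126 replicates 1, 2 and 3. Every GSK-126 library was below every DMSO library, and replicate 2 was the highest of each group. Within replicate numbers the ratio of GSK-126 to DMSO was 0.530, 0.413 and 0.371. The log2 fold change was -1.19 (SE 0.14, n = 3 per group, edgeR adjusted p = 9.21e-06), and the call held in each alternative that kept the block, including the fit without replicate 2 (log2 fold change -1.14, edgeR adjusted p = 0.00138). Without the block the log2 fold change was -1.20 with an SE of 0.35 and an adjusted p of 0.953 in edgeR. Granule neuron markers moved the same way in the same libraries: Gabra6, a GABA-A receptor subunit of mature granule neurons, had a log2 fold change of -1.19 (edgeR adjusted p = 1.53e-07) and was also highest in replicate 2 of each group, at 216 and 78.7 CPM. Their part in the Wnt7a result was not tested.

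The study's own qPCR primers for Wnt7a are shown because they place its separate assay on the gene, and both match the coding sequence of transcript ENSMUST00000032180.6, which has 4 exons. The forward primer lies in exon 1, at chr6:91411067-91411090, and the reverse primer in exon 3, at chr6:91394549-91394572, with 411 bases between their outer ends in the spliced transcript.
Wnt7a forward: gctgcctgggccacctctttctca
Wnt7a reverse: cccggtggtactggccttgcttct
The count tables sum all exons of the gene, so the values above are not those of this stretch alone.

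Wnt9a, a ligand known from joint and limb development, was 1.57-fold higher with GSK-126. It lies on chr11:59306928-59333552 of GRCm38, on the plus strand (ENSMUSG00000000126.11). DMSO replicates 1, 2 and 3 gave 14.7, 11.9 and 9.99 CPM, and GSK-126 replicates 1, 2 and 3 gave 20.7, 19.6 and 16.7 CPM. The groups did not overlap, and the ratio was 1.41, 1.64 and 1.67 within the replicate numbers. The log2 fold change was 0.65 (SE 0.16, edgeR adjusted p = 0.0119), over 115 to 273 counts per library. This call was less firm than that of Wnt7a: the adjusted p was 0.0687 with DESeq2 and the block, 0.0700 without replicate 2 and 0.953 without the block in edgeR. Wnt3a, its neighbor 16.2 kb away on the opposite strand, had 11 counts at most in any library and was not tested.

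**Figure D1:**
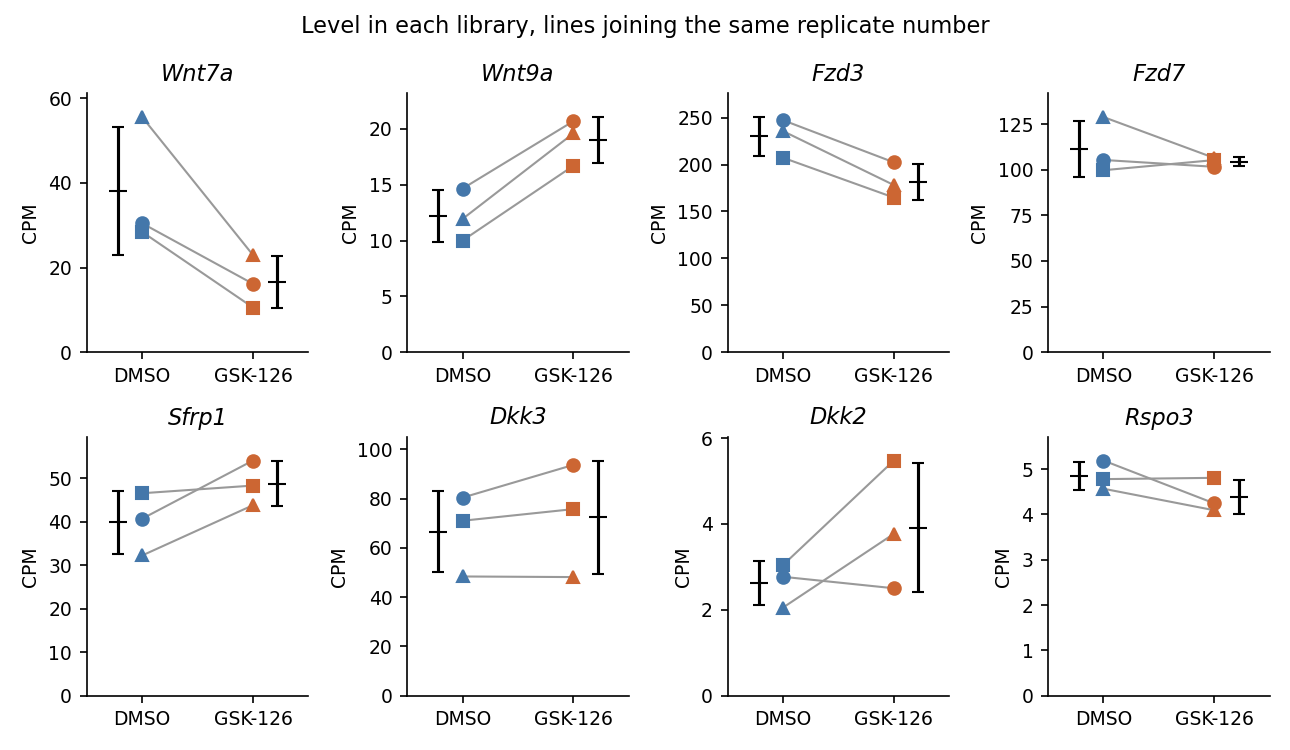
CPM in each library of the 8 members that were called, led their subfamily in level per kilobase of exon, or had its smallest p. Circles, triangles and squares are replicates 1, 2 and 3, gray lines join the same number, and bars beside them give the mean and SD of 3 libraries. Wnt7a and Fzd3 go down and Wnt9a goes up in all 3 pairs, whereas the lines of Fzd7, Dkk2, Dkk3 and Rspo3 go both ways.

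The other 10 tested ligands did not pass. Wnt5a, which mostly signals without beta-catenin, gave 87.0, 40.8 and 72.1 CPM in DMSO replicates 1 to 3 and 90.7, 33.5 and 76.3 CPM in GSK-126 replicates 1 to 3. Replicate 2 was the lowest library of both groups, and the groups overlapped. The log2 fold change of Wnt5a was -0.04 with a 95% interval of -0.24 to 0.17 and was 0.0061 without the block. Wnt16 was at 1.15, 1.68 and 0.956 CPM with DMSO and 1.82, 2.69 and 2.94 CPM with GSK-126. Those groups did not overlap, but on 10 to 25 counts per library the log2 fold change of 0.97 (SE 0.45) had an unadjusted p of 0.0420 and an adjusted p of 0.209 in edgeR. Wnt2, Wnt2b, Wnt3, Wnt4, Wnt5b, Wnt6, Wnt7b and Wnt11 had log2 fold changes from -0.40 (Wnt4) to 0.27 (Wnt2b), and none of them went the same way in all 3 pairs.

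With 1 ligand lower and another higher, the share of Wnt9a and the joint share of Wnt5a and Wnt7a did not overlap between groups. The shares of Wnt7a alone and of Wnt5a alone did overlap. Of the summed CPM per kilobase of the 19 ligands, Wnt7a took 24.5%, 48.8% and 28.5% in DMSO replicates 1, 2 and 3 and 13.5%, 28.8% and 10.7% in GSK-126 replicates 1, 2 and 3. Wnt9a took 9.56% to 11.3% with DMSO and 16.2% to 23.5% with GSK-126. Wnt5a took 14.5% to 29.3% and 17.1% to 31.4%. Wnt5a and Wnt7a together held 53.0% to 63.3% of ligand transcripts per kilobase with DMSO and 42.1% to 45.9% with GSK-126. These shares restate the values above and carry no test of their own.

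Fzd3 was the only receptor called. It is the Frizzled of axon guidance and planar polarity, and fell by 21.1%. The gene (ENSMUSG00000007989.7) lies on chr14:65192449-65262463 of GRCm38, on the minus strand. CPM were 247, 236 and 207 in DMSO replicates 1, 2 and 3 and 202, 178 and 165 in GSK-126 replicates 1, 2 and 3. All GSK-126 libraries were below all DMSO libraries, though the lowest DMSO and the highest GSK-126 value were close. The 3 ratios, 0.818, 0.756 and 0.795, were near each other. The log2 fold change was -0.34 (SE 0.07, edgeR adjusted p = 0.00446) and stayed called without each replicate pair, with adjusted p from 0.0168 to 0.0240. Without the block it was -0.34 again, with an SE of 0.13 and an edgeR adjusted p of 0.953.

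Of the other Frizzled genes, Fzd7 had the highest level per kilobase. It gave 105, 129 and 99.7 CPM in DMSO replicates 1 to 3 and 102, 106 and 105 CPM in GSK-126 replicates 1 to 3, and the groups overlapped. The log2 fold change of Fzd7 was -0.09 (SE 0.08, edgeR adjusted p = 0.618), with a 95% interval of -0.26 to 0.09, and became 0.015 without replicate 2. Fzd1 and Fzd2, the next of the abundant receptors, had log2 fold changes of 0.07 and 0.06 with 95% intervals of -0.11 to 0.26 and -0.11 to 0.24. Fzd4, Fzd5, Fzd8, Fzd9 and Fzd10 ranged from -0.08 to 0.19, with adjusted p of 0.583 or more in edgeR. Fzd10 was higher with GSK-126 in all 3 pairs, at 15.7, 11.3 and 8.69 against 16.4, 13.1 and 10.7 CPM. That difference was smaller than the one between replicate numbers. Fzd5 shares 1233 of its 6915 bases of exon with the antisense gene Gm38058. The strand setting of the counting was not given in the sources used here, so how reads over those bases were counted is not known. The same holds for shorter overlaps at Wnt5a (358 bases), Wnt7b (324) and Wnt11 (364).

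**Figure D2:**
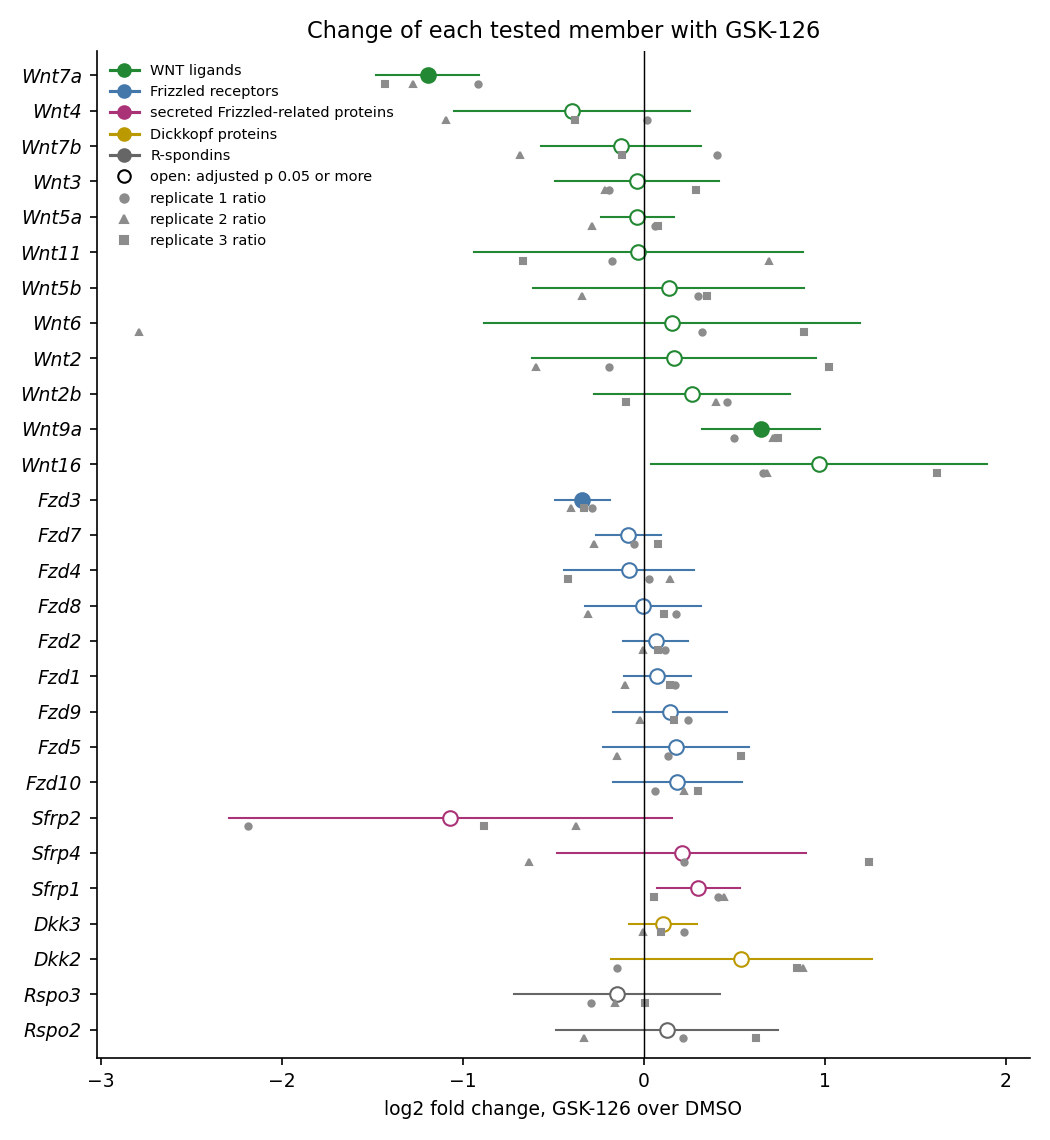
Log2 fold change of GSK-126 over DMSO for the 28 tested members, by subfamily, with 95% intervals from the edgeR fit with the replicate block (large circles, filled where the adjusted p is under 0.05). Small gray marks are the log2 ratios of the 3 pairs. Wnt7a and Fzd3 to the left and Wnt9a to the right are filled, and Wnt16 and Sfrp2 are far from 0 with wide intervals.

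None of the 7 tested secreted modulators was called by edgeR with the block or by DESeq2, and 1 of them, Sfrp1, had an unadjusted p under 0.05. DESeq2 gave no adjusted p for Dkk2 and Rspo3, so it could not call them. It may have given none for other modulators with few counts. Sfrp1, the most abundant of the SFRPs taken by symbol, was at 40.7, 32.3 and 46.6 CPM with DMSO and 54.1, 43.8 and 48.4 CPM with GSK-126. It was higher in all 3 pairs although the groups overlapped. Its log2 fold change was 0.30 (SE 0.11) with an edgeR adjusted p of 0.108, and 0.43 with an adjusted p of 0.0318 without replicate 3. Sfrp2 was lower in all 3 pairs, at 1.38, 1.12 and 1.48 CPM with DMSO and 0.303, 0.862 and 0.801 CPM with GSK-126. On 4 to 17 counts per library its log2 fold change of -1.07 (SE 0.59) had an edgeR adjusted p of 0.309, and it shares 347 bases of exon with the antisense gene Gm26771. Sfrp4 had a log2 fold change of 0.21 (SE 0.33).

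Among the Dickkopf genes, Dkk3, a divergent member of the family, was by far the highest. It gave 80.4, 48.4 and 71.0 CPM in DMSO replicates 1 to 3 and 93.7, 48.1 and 75.7 CPM in GSK-126 replicates 1 to 3, with replicate 2 lowest in both groups. The log2 fold change of Dkk3 was 0.11 (SE 0.09, edgeR adjusted p = 0.546). Dkk2, a ligand of LRP6, was at 2.77, 2.05 and 3.04 CPM with DMSO and 2.50, 3.77 and 5.48 CPM with GSK-126, and its log2 fold change of 0.54 (SE 0.35) had an edgeR adjusted p of 0.395. The R-spondins were low. Rspo3 gave 5.19, 4.57 and 4.78 CPM with DMSO and 4.24, 4.09 and 4.81 CPM with GSK-126 (log2 fold change -0.15, SE 0.27, edgeR adjusted p = 0.813), and shares 404 bases of exon with the antisense gene Gm48159. Rspo2 had a log2 fold change of 0.13 (SE 0.29).

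For the 25 tested members that were not called, the width of the interval sets what could have been missed. In 9 of them the 95% interval of the log2 fold change lay between -0.5 and 0.5 (Fzd1, Fzd2, Fzd4, Fzd7, Fzd8, Fzd9, Dkk3, Wnt3 and Wnt5a). In 5 it reached beyond -1 or 1 (Wnt4, Wnt6, Wnt16, Sfrp2 and Dkk2), so a change of 2-fold lay inside it.

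The remaining 13 members were under the filter on low counts. Fzd6, Wnt8a, Dkk1, Dkk4 and Rspo4 were listed at 0 in all 6 libraries. By counting error alone a 0 allows a level of up to 0.0491 CPM (3 of 61106099 counts), but this limit holds only where reads of the gene could be counted. Celsr3, a planar polarity cadherin of neurons that is named here after its values were seen, was also listed at 0 in all libraries, and whether the counting step lost reads of such genes, Fzd6 included, was not tested. No level is therefore given for Fzd6. The other 8 had between 1 and 40 counts in all. Wnt1, which patterns the early midbrain and hindbrain, had 4 counts over the 6 libraries, Wnt8b 1, Wnt10a 5, Sfrp5 14, Wnt3a 16, Wnt10b 20, Wnt9b 29 and Rspo1 40. Of the 16 counts of Wnt3a, 11 were in DMSO replicate 2. The genes under the filter include the partner of each of the 4 close ligand pairs of the genome: Wnt10b and Wnt1 lie 11.7 kb apart on chromosome 15 and both are under it, while Wnt9b is 24.3 kb from Wnt3, Wnt3a 16.2 kb from Wnt9a and Wnt10a 6.2 kb from Wnt6.

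Per kilobase of exon, the 28 tested members spanned a wide range, from Fzd7 at 23.8 ± 2.34 CPM per kilobase (SD, n = 6 libraries) to Wnt16 at 0.430 ± 0.184. Fzd7, Fzd2 (21.6 ± 2.60), Dkk3 (20.7 ± 5.4), Fzd1 (19.6 ± 2.92) and Fzd3 (16.1 ± 2.49) led, and the ranges of each neighboring pair among them overlapped. Fzd3 and the next gene, Sfrp1 (10.1 ± 1.70), were the only neighbors in the order of tested members whose ranges over libraries did not overlap. The order of Wnt7a, Wnt5a and Wnt9a by group mean differed between DMSO and GSK-126. Between Wnt5a and Wnt7a, however, the order followed the replicate number. Wnt5a was above Wnt7a in replicates 1 and 3 of both groups, and Wnt7a was above Wnt5a in replicate 2 of both. With DMSO, Wnt7a was at 12.03 ± 4.77 CPM per kilobase (SD, n = 3), Wnt5a at 8.52 ± 3.01 and Wnt9a at 3.66 ± 0.702. With GSK-126, Wnt5a was at 8.54 ± 3.80, Wnt9a at 5.71 ± 0.620 and Wnt7a at 5.22 ± 1.96. Values of Wnt7a and Wnt5a overlapped over libraries in each group, and those of all 3 overlapped with GSK-126. Receptors exceeded ligands: the 10 Frizzled genes summed to 86.5–114 CPM per kilobase over the libraries and the 19 ligands to 25.1–39.1. Fzd7, Fzd2, Fzd1 and Fzd3 held 76.8% to 85.5% of the receptor sum. Within it the share of Fzd3 was 17.4% to 18.9% with DMSO and 13.5% to 16.1% with GSK-126.

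**Figure D3:**
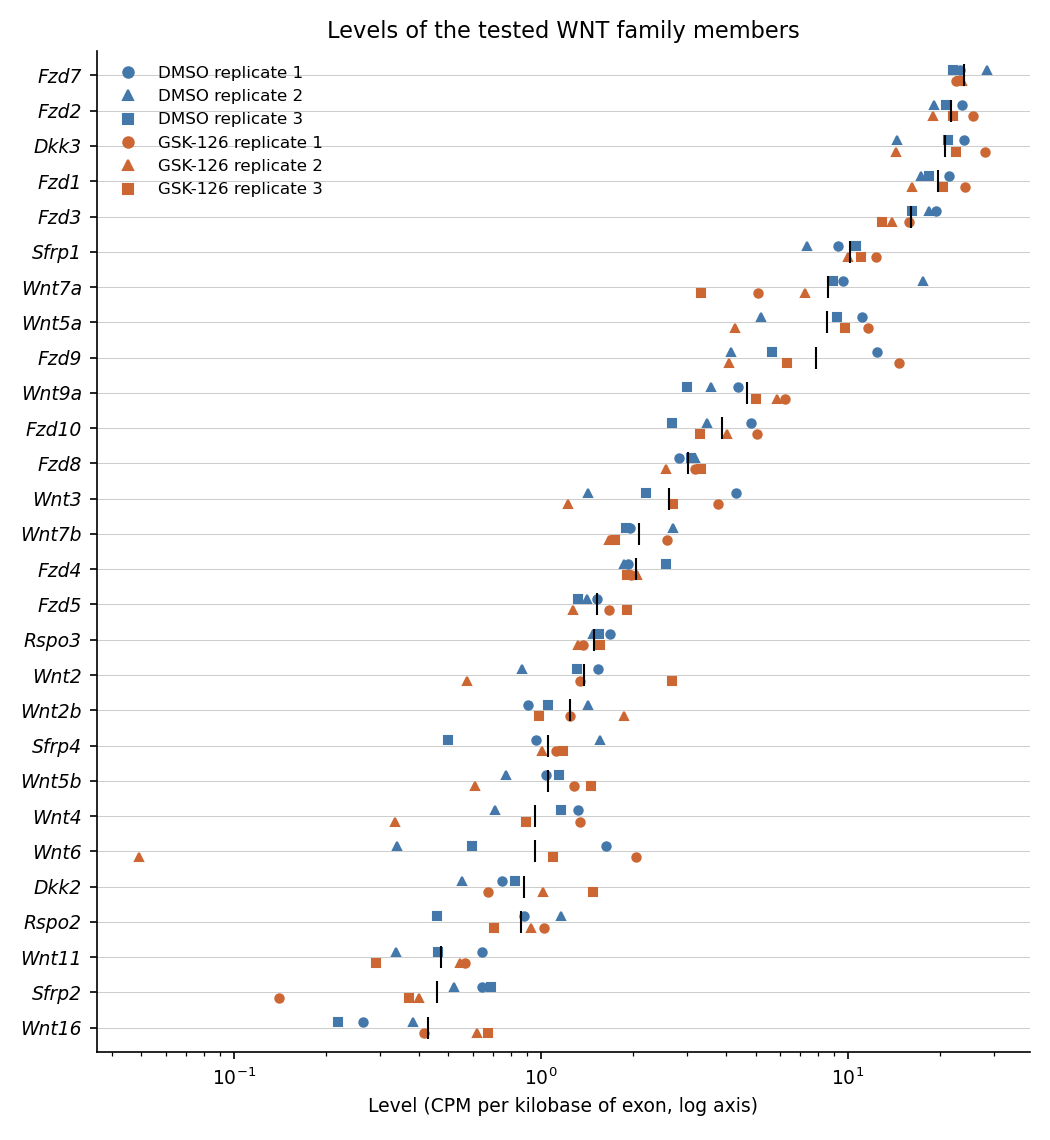
Level of each tested member in every library, in CPM per kilobase of exon on a log axis, in order of the mean (black tick). Blue marks are DMSO, orange marks GSK-126, and circles, triangles and squares are replicates 1, 2 and 3. Frizzled genes and Dkk3 lead at 16.1 to 23.8 CPM per kilobase on average, and the triangles of replicate 2 stand to the left for Wnt5a, Wnt3, Wnt4, Wnt6 and Dkk3.

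Libraries of different replicate numbers differed in many members. Replicate 2 was the lowest library of both groups for 12 of the 28 tested members (42.9%) and the highest for 3 (10.7%), where over all tested genes it was lowest for 24.2% and highest for 26.6%. Replicate 1 was the highest of both groups for 12 members (42.9%), where over all tested genes it was highest for 19.5%. Mean CPM in replicate 2 was below that in replicates 1 and 3 by over 1 on the log2 scale for 6 members: Wnt2, Wnt3, Wnt4, Wnt5a, Wnt6 and Fzd9. Wnt6 differed most, at 3.58, 0.746 and 1.3 CPM with DMSO and 4.47, 0.108 and 2.40 CPM with GSK-126. Fzd9 gave 28.5, 9.51 and 13.0 CPM and 33.7, 9.37 and 14.6 CPM in the same order. Wnt7a, Wnt2b and Fzd7 were the 3 that were highest in replicate 2 of both groups. The ratio of replicate 2 to the others was larger in size than the GSK-126 log2 fold change for 19 of the 28 members. The median sizes on the log2 scale were 0.33 and 0.15. Shares over all tested genes were not computed for these 6 and 19 members. None of the 19 was a called member, but calling selects for large changes, so this restates the calls. The astroglial marker sum above was low in replicate 2 of both groups, with Gfap, an astrocyte filament gene, at 787 and 919 CPM against 1703 to 3300 in the rest. Its part in the difference between replicate numbers was not tested.

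**Figure D4:**
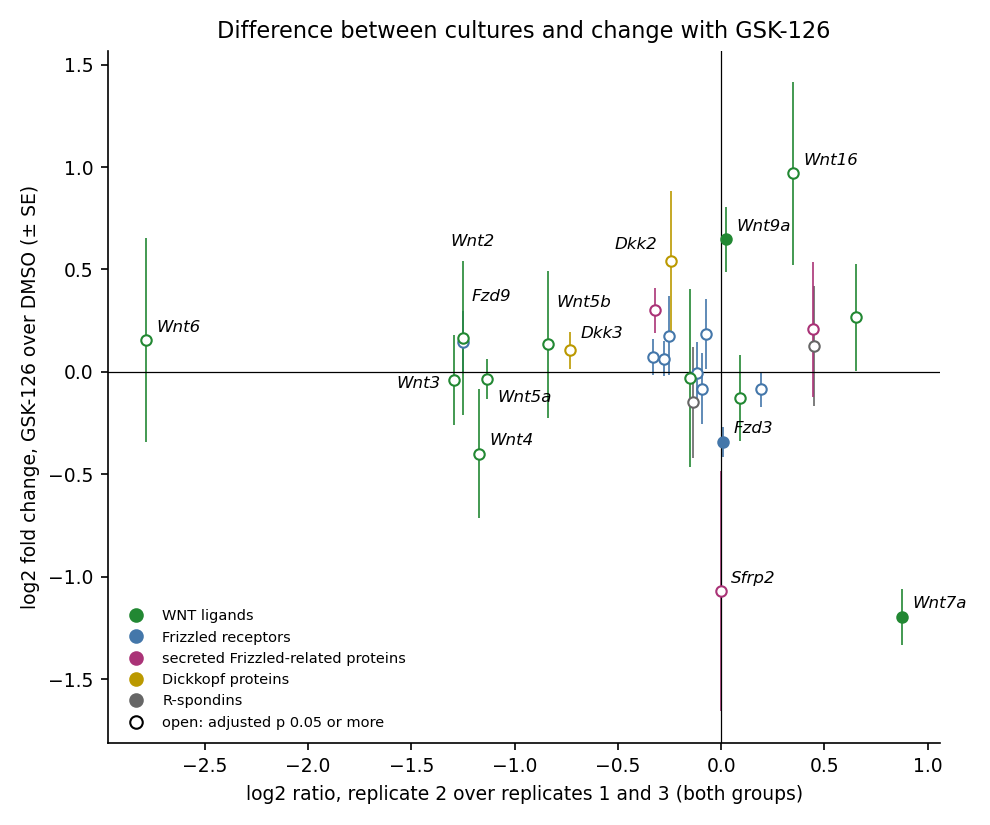
For each tested member, the log2 ratio of mean CPM in replicate 2 to that in replicates 1 and 3 (x axis, both groups) and the log2 fold change of GSK-126 over DMSO with its SE (y axis, fit with the block), colored by subfamily and filled where called. Wnt6, Wnt3, Wnt2, Fzd9, Wnt4 and Wnt5a lie far to the left and near 0 on the y axis, within 0.40, whereas Wnt9a and Fzd3 lie near 0 on the x axis.

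Other genes of the pathway were read from 5 lists, of which some share genes. Of all tested genes 3.35% were called higher and 5.09% lower, 8.44% in all. The counts below, of 0 to 3 calls per list, are to be read beside these shares. No list was tested as a set. For release of WNTs and further secreted inhibitors, 1 of 9 tested genes was called, and it was higher. This was Wls, the carrier that brings WNT proteins to the cell surface, at 351, 303 and 333 CPM with DMSO and 457, 330 and 439 CPM with GSK-126. The groups overlapped only in replicate 2 of GSK-126, and the log2 fold change was 0.30 (SE 0.07, edgeR adjusted p = 0.0127), with an adjusted p of 0.0748 and 0.10 when replicates 1 and 3 were left out in turn. Porcn, the acyltransferase that lipidates WNTs, was lower in all 3 pairs without being called (log2 fold change -0.27, edgeR adjusted p = 0.0585).

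None of the 15 tested co-receptors and regulators of receptor turnover was called by edgeR with the block or by DESeq2, LRP5, LRP6, ROR and LGR genes included, and 2 had an unadjusted p under 0.05. Lrp5 and Lrp6 had log2 fold changes of 0.17 and -0.11. Adgra2, a cofactor of Wnt7a and Wnt7b signaling at the blood-brain barrier, came nearest at 0.24 (edgeR adjusted p = 0.0542), and was called higher with total-count or upper-quartile scaling and under the other filters, at log2 fold changes of 0.26 to 0.28. Named here after its values were seen, it was the only gene of its list to cross the threshold in any alternative.

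Of the 29 tested genes of the cytoplasmic and nuclear beta-catenin pathway, 3 were called, all lower. Dact1, a Dishevelled-binding scaffold, was at 68.5, 137 and 85.2 CPM with DMSO and 42.0, 79.7 and 51.8 CPM with GSK-126 (log2 fold change -0.74, SE 0.09, edgeR adjusted p = 1.24e-05). Tle3, a Groucho co-repressor of TCF/LEF factors, gave 154, 248 and 186 CPM and 127, 156 and 130 CPM (log2 fold change -0.49, SE 0.08, edgeR adjusted p = 0.000610). Replicate 2 was the highest of each group for both, as it was for Wnt7a and Gabra6. The groups overlapped for Dact1 and for Tle3. Dvl3, a Dishevelled, was just past the threshold (log2 fold change -0.25, SE 0.08, edgeR adjusted p = 0.0449) and passed in none of the alternatives. Ctnnb1, which encodes beta-catenin, had a log2 fold change of 0.08 (edgeR adjusted p = 0.550). Dact1 shares 1313 of its 3761 bases of exon with the antisense gene 4930474H06Rik, and Ctnnb1 shares 759 with Ulk4, with the same limit as at Fzd5. The list's median was -0.08.

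No target gene of beta-catenin was called among 14 tested, by edgeR with the block or by DESeq2, and 3 had an unadjusted p under 0.05. DESeq2 gave no adjusted p for Lef1, so it could not call that gene. Axin2, the most used readout of the pathway, was at 71.5, 56.8 and 61.1 CPM with DMSO and 73.4, 68.7 and 53.2 CPM with GSK-126. The groups overlapped, with a log2 fold change of 0.04 and a 95% interval of -0.17 to 0.25. Lef1 was near the limit of detection at 1.27, 2.14 and 2.69 CPM against 2.80, 1.19 and 1.20 CPM (log2 fold change -0.25, 95% interval -1.26 to 0.77). Ccnd1, which encodes cyclin D1 and is named here after its values were seen, was called higher with total-count scaling (log2 fold change 0.26) and without replicate 2 (0.32), and in the fit with TMM factors it was at 0.22 with an edgeR adjusted p of 0.116. Antisense genes share 1208 bases of exon with Lef1, 1100 with Ccnd1 and 209 with Axin2, with the same limit as at Fzd5. The median over the list was 0.02.

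In the planar cell polarity and calcium branch, 3 of 25 tested genes were called, all lower. Camk2b, a calcium/calmodulin kinase subunit of neurons, gave 313, 529 and 337 CPM with DMSO and 218, 368 and 239 CPM with GSK-126 (log2 fold change -0.51, SE 0.07, edgeR adjusted p = 5.94e-05). Celsr2, an atypical cadherin of planar polarity that acts with Fzd3 in axon tracts, gave 227, 338 and 271 CPM and 182, 233 and 195 CPM (log2 fold change -0.45, SE 0.07, edgeR adjusted p = 0.000476). Camk2d had a log2 fold change of -0.33 (SE 0.07, edgeR adjusted p = 0.00685), and an adjusted p of 0.0600 without replicate 2. All 3 were highest in replicate 2 of both groups and lower with GSK-126 in every pair, with overlapping groups. The list's median was -0.09.

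**Figure D5:**
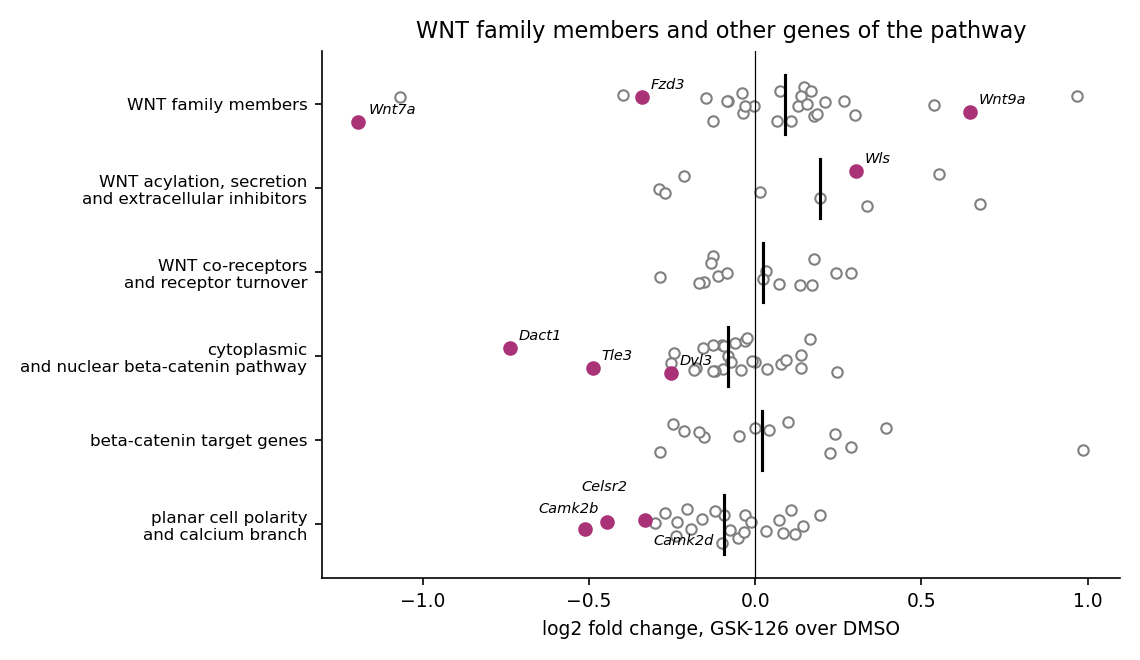
Log2 fold change of GSK-126 over DMSO for tested WNT family members and for 5 lists of other pathway genes, from the fit with the replicate block. Filled marks have an adjusted p under 0.05 and are named, black bars are medians (0.09 for the members), and the vertical scatter within a row has no meaning. Dact1, Tle3, Dvl3, Camk2b, Celsr2 and Camk2d lie to the left of 0, and Wls lies to the right.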

How the data were processed

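RNA-seq counts of 6 libraries, 3 DMSO and 3 GSK-126, were used, with groups taken from the sample labels. Reads had been trimmed (Trimmomatic 0.38), mapped to mouse GRCm38.p4 (STAR 2.7.2b) and assigned to Gencode exons (HTSeq) by the authors, whose deposited values are raw counts per gene. The Gencode release and strand setting are not given in the sources used here, and the symbols are those of GENCODE M21, which gave identifiers, coordinates and exon lengths. Lines that name no gene, 58.7% to 60.7% of reads listed, were left out. No library was a copy of another (lowest chi-square per degree of freedom 8.40).

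After filterByExpr and TMM scaling, the quasi-likelihood test of edgeR 4.0.16 (R 4.3.3) was run with replicate number and treatment as terms. Log2 CPM deviations of same-numbered libraries had correlations of 0.56, 0.63 and 0.49 across genes, and others 0.0064 or less, so the numbers pair the samples. The labels do not say what a number marks. Alternatives were a fit without the block, DESeq2 1.42.0 with it, other scalings and filters, and leaving out each pair. Scripts were tested on simulated data. Exons of GENCODE were merged per gene for levels per kilobase. Named genes are the members called, the highest and the smallest p of each subfamily, Wnt7a, up to 4 called genes of each pathway list, Axin2 and Lef1, and other genes were chosen after their values were seen. Members, lists and tests were chosen with earlier results of these data known. P-values of fits with the block measure how consistently GSK-126 and DMSO differed within replicate numbers. Only the fit without the block sets that change against the spread between replicate numbers. Floors from counts cover counting error only. Intervals of log2 fold changes come from the edgeR fit with the block. These intervals also include the variation between libraries within replicate numbers that the fit estimated.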

Additional observations from a re-analysis of the deposited data

How the results depend on the processing

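Leaving out a library was done as a whole replicate pair, since under the block a library without its partner adds nothing. Without the replicate block, edgeR called 0 genes higher and 0 lower, with 665 at an unadjusted p under 0.05, and 0 members and 0 genes of the lists, against 561, 851, 3 and 7 with it. The biological coefficient of variation was 24.0% without the block and 9.74% with it. DESeq2 with the block called 351 genes higher and 600 lower, and 0 members higher and 2 lower. Without a replicate pair, 337 to 558 genes were called higher and 496 to 719 lower, both lowest without replicate 2, with 0 to 2 members higher (Wnt9a lost without replicate 2, Sfrp1 gained without replicate 3) and 2 lower. In the list of WNT release and secreted inhibitors the count called higher was 2 with no filter (Wls and Frzb) and 0 to 1 without a pair. For co-receptors it was 1 with upper-quartile factors, total counts, no filter and at least 10 counts in every library. For target genes it was 1 with total counts and 0 to 1 without a pair. Of the named genes that were not called, 3 changed direction: Fzd7 (from -0.16 to 0.015 over the fits without a pair, 0.015 without replicate 2), Axin2 (from -0.074, without replicate 2, to 0.16) and Lef1 (from -0.99 to 0.18, at 0.04 without replicate 2 and 0.18 without replicate 3). The cause of these differences was not tested.

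The median log2 fold change of the members, 0.09, was between -0.030 (without replicate 3) and 0.16 (without replicate 2) over the fits without a pair, and that of the co-receptors turned from 0.023 to -0.047 without replicate 3. That of the target genes went to -0.08 without replicate 2 and 0.13 without replicate 3, and that of the polarity and calcium list to -0.13 without replicate 1. DESeq2 gave an adjusted p for 12332 genes, against 16729 in edgeR, and genes without one could not be called. Among the named genes it gave none for Dkk2, Rspo3 and Lef1. Of the other 149 values of named genes under alternatives, 121 kept direction and side of the threshold, 23 lost the call, 1 gained it and 4 changed direction.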
